A study of Mus with 4 samples.

Results

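AMP-activated protein kinase (AMPK) and the mTOR complexes are described here through the m6A peaks of 10 mouse genes: *Prkaa1*, *Prkaa2*, *Prkab1*, *Prkab2*, *Prkag2*, *Stk11*, *Mtor*, *Rptor*, *Tsc1* and *Flcn*. The genes were chosen by name, and every peak that carried one of these names was taken from the 2 deposited peak lists. This gave 20 of the 18400 peaks of the *Wtap* flox/flox list and 14 of the 18693 peaks of the *Wtap*-BKO list. The members with a peak numbered 8, among 11431 genes with a peak in either list. *Prkaa2* and *Prkab2* had a peak in neither.

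m6A was mapped by MeRIP-seq, in which fragmented RNA is pulled down with an antibody to m6A (IP) and sequenced beside RNA that was not pulled down (input). The 4 samples were an IP and an input from the interscapular brown adipose tissue (iBAT) of *Wtap* flox/flox mice and the same from *Wtap*-BKO mice, all C57BL/6 on chow and 8 weeks old. Both genotypes carried floxed *Wtap* alleles, in which loxP sites flank exon 4. The *Wtap*-BKO mice also carried *Ucp1*-iCre, a Cre placed behind the last *Ucp1* exon, so recombination is expected in cells that express *Ucp1*, while the other cells of the tissue keep the gene. The labels give no Cre for the control mice. Each sample was 1 pool of 8 mice, and each list was called on 1 IP and 1 input. There were thus no replicates and no spread between animals, and no test between genotypes was made here. The paper itself compares m6A peaks between the genotypes and lists AMPK signalling among the pathways of genes with decreased peaks. Read depth is unknown from the lists. A missing peak means only that no region passed the authors' threshold, a false discovery rate (FDR) under 0.05.

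AMPK senses falling cellular energy. It is a heterotrimer of a catalytic alpha, a scaffold beta and a regulatory gamma subunit, and it is switched on by the kinase LKB1, the product of *Stk11*. mTOR complex 1 (mTORC1) drives growth when nutrients and insulin signals are present. It is held back by AMPK through the scaffold Raptor and through the TSC complex, and folliculin (*Flcn*) links it to amino acids at the lysosome. Both kinases are known regulators of thermogenesis and mitochondrial content in brown fat. WTAP is the adaptor of the METTL3-METTL14 methyltransferase, which writes m6A on mRNA, most often in long exons and around stop codons and 3′ ends.

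Marker genes of the labelled tissue and of its other cell types were described by presence of a peak. Of 13 brown adipocyte markers, 13 had a peak in the *Wtap* flox/flox list and 12 in the *Wtap*-BKO list, where *Elovl3* had none. Macrophage markers with a peak numbered 4 and 9 of 10, T/B lymphocyte markers 2 and 5 of 9, fibroblast markers 7 and 7 of 8, and skeletal muscle markers 4 and 12 of 12. *Adgre1* had a peak in neither list, nor had *Cd3e*, *Cd3g*, *Cd79a*, *Ms4a1* or *Fn1*. Over all 11431 genes with a peak in either list, 9732 had one in the *Wtap* flox/flox list and 9713 in the *Wtap*-BKO list. More macrophage, lymphocyte and muscle markers thus had peaks in the *Wtap*-BKO list, while the counts over all genes were close. The part of this in the values given here was not tested. *Wtap* itself carried 4 peaks in each list. A peak is not a measure of transcript level, so this checks neither the deletion nor the labels. In pooled tissue, fewer brown adipocytes and less methylated RNA per cell cannot be told apart.

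All 8 members that had a peak had one in both lists. Over all genes with a peak, 70.1% had peaks in both. A peak was called found when a peak of the other list covered 1 or more of its exonic bases on that strand. In the *Wtap* flox/flox list 7 of the 20 member peaks (35%) were not found in *Wtap*-BKO, close to the 32.2% of all peaks in that list. These 7 lay on 5 of the 8 genes (*Prkaa1*, *Prkab1*, *Mtor*, *Rptor* and *Tsc1*), against 46.1% of all genes with a *Wtap* flox/flox peak. The gene shares were not matched for number of peaks. Each of the 8 had at least 2 *Wtap* flox/flox peaks, while all genes include those with 1, which have fewer chances of a peak not found. In the other direction, 0 of the 14 *Wtap*-BKO peaks lacked a *Wtap* flox/flox peak, which allows a share of up to 21.4%, and the share over all *Wtap*-BKO peaks was 32%. By gene the count was 0 of 8, which allows up to 37.5%, beside 47.7% of all genes with a *Wtap*-BKO peak. These limits are 3 divided by the number counted, cover counting error only and treat peaks and genes as independent. With 1 pool per genotype they are no test against the shares over all peaks or genes. Under stricter settings, given in the closing section, the members with a *Wtap*-BKO peak not found numbered 2.

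**Figure D1:**
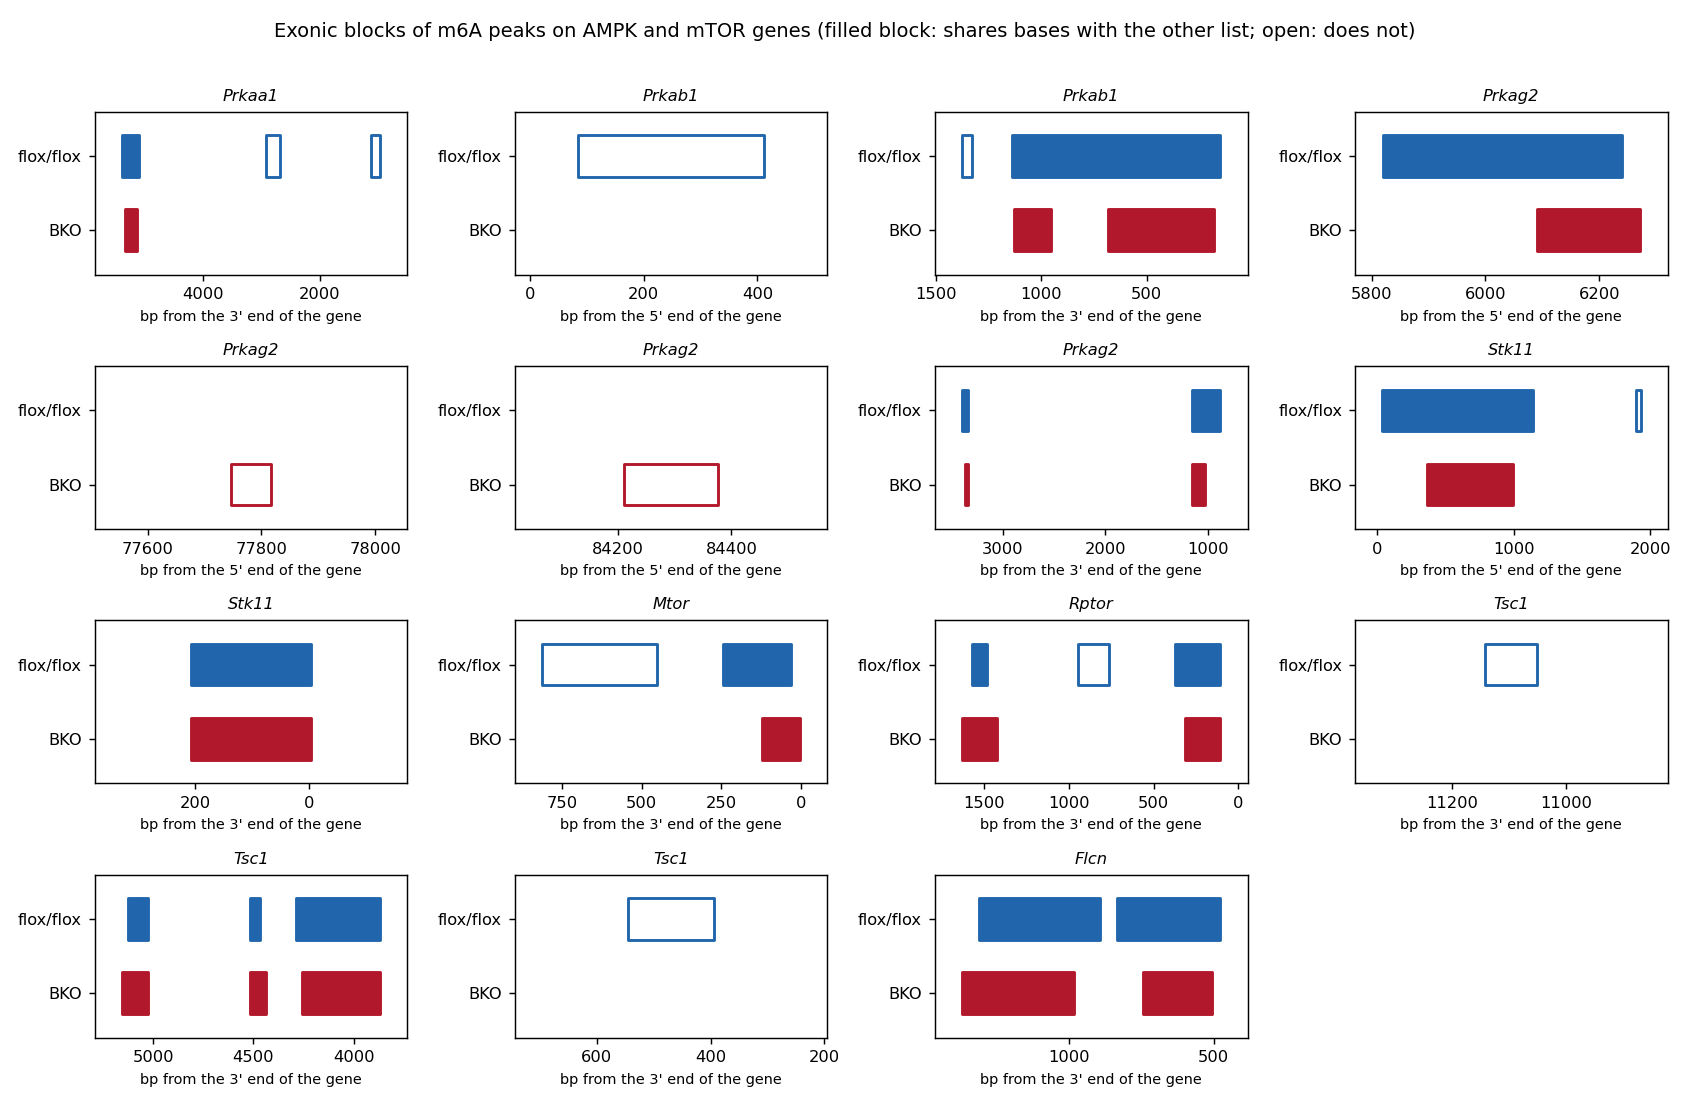
Exonic blocks of the m6A peaks on the 8 members, by distance in bp from the 5′ or 3′ end of the gene, with the *Wtap* flox/flox list in blue above the *Wtap*-BKO list in red. A filled block shares bases with a block of the other list and an open block does not. Of the 20 *Wtap* flox/flox peaks, 7 have only open blocks, whereas each of the 14 *Wtap*-BKO peaks has at least 1 filled block, including the *Prkag2* peak whose other 2 blocks are open.

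Positions below are on GRCm38.p6. Fold enrichment is IP over input within 1 genotype and FDR is given as its log10, so a more negative value is a stronger call. Because the lists were called separately, neither has a common scale. The rank of a peak is therefore given too, as the percent of peaks in its own list that were weaker.

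*Prkaa1* (ENSMUSG00000050697), which encodes the catalytic alpha-1 subunit, went from 3 peaks in *Wtap* flox/flox to 1 in *Wtap*-BKO. The *Wtap* flox/flox peak at chr15:5176492-5176791 covered 300 bases at a fold enrichment of 5.95 and a log10 FDR of -16. The *Wtap*-BKO peak, chr15:5176552-5176761, lay wholly inside it and covered 210 bases at a fold enrichment of 2.92 and a log10 FDR of -8.79. The ranks of this pair were close, 68.1% for *Wtap* flox/flox and 60.3% for *Wtap*-BKO.

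The other 2 *Prkaa1* peaks lay nearer the 3′ end of the gene and were not found in *Wtap*-BKO. The peak at chr15:5178975-5179214 covered 240 bases and ranked at 55.3%, with a fold enrichment of 4.5. The peak at chr15:5180795-5180944 covered 150 bases and ranked at 16.6%, with a fold enrichment of 2.31. Their distances to the *Wtap*-BKO peak were 2213 and 4033 bp. *Prkaa2*, which encodes the other catalytic subunit (chr4:105029649-105109898), had no peak, and 0 peaks of any gene fell within its span in either list.

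*Prkab1* (ENSMUSG00000029513) encodes the scaffold beta-1 subunit and had 2 peaks in each list, but not at the same places. Near the 3′ end, the *Wtap* flox/flox peak at chr5:116013735-116014963 covered 1042 exonic bases in 2 blocks, at a fold enrichment of 9.8 and a log10 FDR of -108. It ranked at 96% and was the strongest member peak by FDR in that list. In *Wtap*-BKO the same stretch held 2 shorter peaks, which together covered 65.8% of it.

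The first of these, chr5:116013765-116014270, covered 506 bases at a fold enrichment of 5.09 and a log10 FDR of -42.1, and at 91.3% it was the strongest member peak of the *Wtap*-BKO list. The second, chr5:116014538-116014717, covered 180 bases with a fold enrichment of 2.61 and ranked at 45.9%. The broad control region thus appeared in *Wtap*-BKO as a strong part and a weak part with uncalled bases in between. A separate *Wtap* flox/flox peak of 329 bases, chr5:116024091-116024419, had its centre 248 bp from the 5′ end. It had a fold enrichment of 5.75, ranked at 47% and had no *Wtap*-BKO counterpart. *Prkab2*, the beta-2 subunit gene (chr3:97658211-97673812), had no peak, and 0 peaks of any gene lay in its span.

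*Prkag2* (ENSMUSG00000028944) encodes the gamma-2 subunit, which binds the adenine nucleotides that AMPK senses. At its 3′ side, the *Wtap* flox/flox peak at chr5:24863614-24866135 covered 331 exonic bases in 2 blocks, at a fold enrichment of 2.37 and a log10 FDR of -27.4. The *Wtap*-BKO peak there, chr5:24863764-24866105, covered 151 bases at a fold enrichment of 1.63 and a log10 FDR of -2.88. Its rank was 18.1% against 79.6% in *Wtap* flox/flox, the largest drop in FDR rank among the 14 overlapping pairs of member peaks. By fold enrichment both peaks were among the weak ones of their lists, at 9.08% and 3.22%.

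The second *Prkag2* pair overlapped in part. In *Wtap* flox/flox, chr5:25100042-25100462 covered 421 bases, with its centre 6030 bp from the 5′ end, a fold enrichment of 1.95 and a rank of 52.7%. The *Wtap*-BKO peak, chr5:25021905-25100192, also covered 421 bases, in 3 blocks of 167, 72 and 182 bases spread over several exons, with a fold enrichment of 2.61 and a rank of 50.7%. They shared 151 bases, 35.9% of each, all in 1 block. The remaining *Wtap*-BKO blocks, 77746 to 77817 and 84211 to 84377 bp from the 5′ end, had no *Wtap* flox/flox peak on them.

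*Stk11* (ENSMUSG00000003068), the gene of the upstream kinase LKB1, had 1 peak toward each end of the gene in both lists. At the 5′ side, chr10:80115803-80117697 covered 1138 exonic bases in *Wtap* flox/flox at a fold enrichment of 6.94 and a log10 FDR of -86.7. The *Wtap*-BKO peak lay inside it, chr10:80116132-80116761, and covered 630 bases at a fold enrichment of 3.79 and a log10 FDR of -29.4. The bases on both sides of this core were covered in *Wtap* flox/flox alone, and the ranks were 94.5% and 86.9%.

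At the 3′ end of *Stk11* both lists gave one and the same interval, chr10:80130473-80130682, of 210 bases. The fold enrichment was 8.96 for *Wtap* flox/flox and 3.33 for *Wtap*-BKO, and the ranks were 91.3% and 84.1%. Peaks named *Cbarp* on the opposite strand shared bases with this interval in each list, which happened for no other member peak. Whether strand was used in counting is not given in the sources used here, so reads of the 2 genes cannot be told apart at this site.

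*Mtor* (ENSMUSG00000028991), the gene of the kinase itself, had the smallest overlap among the 8 members, with 15.1% of the bases under a peak in either list covered in both. Its main *Wtap* flox/flox peak, chr4:148556873-148557233, covered 361 bases at a fold enrichment of 4.03 and a log10 FDR of -46.3. It ranked at 88.3% and had no *Wtap*-BKO peak on it, the nearest lying 329 bp away. Of the 8 member peaks among the strongest 20% of the *Wtap* flox/flox list by FDR, this was the 1 not found (12.5%), and over all peaks of that rank the share was 9.45%.

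The other *Mtor* peak sat at the very end of the gene. In *Wtap* flox/flox it covered 211 bases, chr4:148557443-148557653, with a fold enrichment of 2.23 and a rank of 61.2%. In *Wtap*-BKO it covered 121 bases, chr4:148557563-148557683, with a fold enrichment of 2.02 and a rank of 40.3%. They shared 91 bases, and by fold enrichment the ranks were 7.27% and 9.25%, so this terminal site was weakly enriched in either genotype.

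*Rptor* (ENSMUSG00000025583) encodes Raptor, the scaffold that presents substrates to mTORC1 and a direct AMPK substrate. It had 3 peaks for *Wtap* flox/flox and 2 for *Wtap*-BKO, all toward the 3′ end. The strongest in *Wtap* flox/flox, chr11:119899217-119899486, covered 270 bases with a fold enrichment of 12.4 and a rank of 80.3%. In *Wtap*-BKO the peak at chr11:119899277-119899486 covered 210 bases with a fold enrichment of 6.26 and a rank of 59.9%.

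The upstream *Rptor* peak went the other way. In *Wtap* flox/flox it covered 91 bases, chr11:119898019-119898109, with a fold enrichment of 2.7, a log10 FDR of -3.75 and a rank of 26.2%. In *Wtap*-BKO it covered 210 bases, chr11:119897960-119898169, with a fold enrichment of 11.8, a log10 FDR of -12 and a rank of 68.3%. The stronger of the 2 sites by FDR was therefore the downstream one in *Wtap* flox/flox and the upstream one in *Wtap*-BKO. Between them lay a *Wtap* flox/flox peak of 181 bases, chr11:119898648-119898828, with a fold enrichment of 2.21 and a rank of 26.4%, which was not found in *Wtap*-BKO.

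*Tsc1* (ENSMUSG00000026812) encodes hamartin, which stabilises the TSC complex and so restrains Rheb and mTORC1. It had 4 peaks for *Wtap* flox/flox and 2 for *Wtap*-BKO. The largest, chr2:28686884-28687303, covered 420 bases in *Wtap* flox/flox with a fold enrichment of 12.4 and a rank of 86.1%. The *Wtap*-BKO peak, chr2:28686913-28687303, covered 93.1% of it, with a fold enrichment of 5.92 and a rank of 78.8%.

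Just upstream, a spliced *Tsc1* peak was stronger in *Wtap*-BKO. In *Wtap* flox/flox it covered 151 bases, chr2:28686047-28686704, with a fold enrichment of 3.28, a log10 FDR of -2.29 and a rank of 6.74%. In *Wtap*-BKO it covered 211 bases, chr2:28686017-28686734, with a fold enrichment of 5.37, a log10 FDR of -10.8 and a rank of 65.6%. The *Wtap* flox/flox peaks not found, chr2:28680031-28680121 and chr2:28690628-28690778, were barely past the threshold, with log10 FDR of -1.83 and -1.81 and ranks of 2.06% and 1.96%.

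*Flcn* (ENSMUSG00000032633) encodes folliculin, which acts on the Rag GTPases, and it had a pair of neighbouring peaks near its 3′ end in both lists. The one nearer the end, chr11:59791885-59792242 in *Wtap* flox/flox, covered 358 bases at a fold enrichment of 6.62 and a log10 FDR of -91.4. In *Wtap*-BKO it was chr11:59791915-59792153, with 239 bases, a fold enrichment of 2.35 and a log10 FDR of -15.4. The ranks were 94.9% and 74.6%.

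The second *Flcn* peak, chr11:59792302-59792719, covered 418 bases in *Wtap* flox/flox with a fold enrichment of 7.63 and a rank of 95.2%. In *Wtap*-BKO, chr11:59792391-59792779 covered 389 bases with a fold enrichment of 2.19 and a rank of 57.2%. Position was thus largely kept in *Flcn*, where 67.9% of all covered bases were covered in both lists, the highest share among the 8 members, while the rank of both peaks was lower in *Wtap*-BKO.

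**Figure D2:**
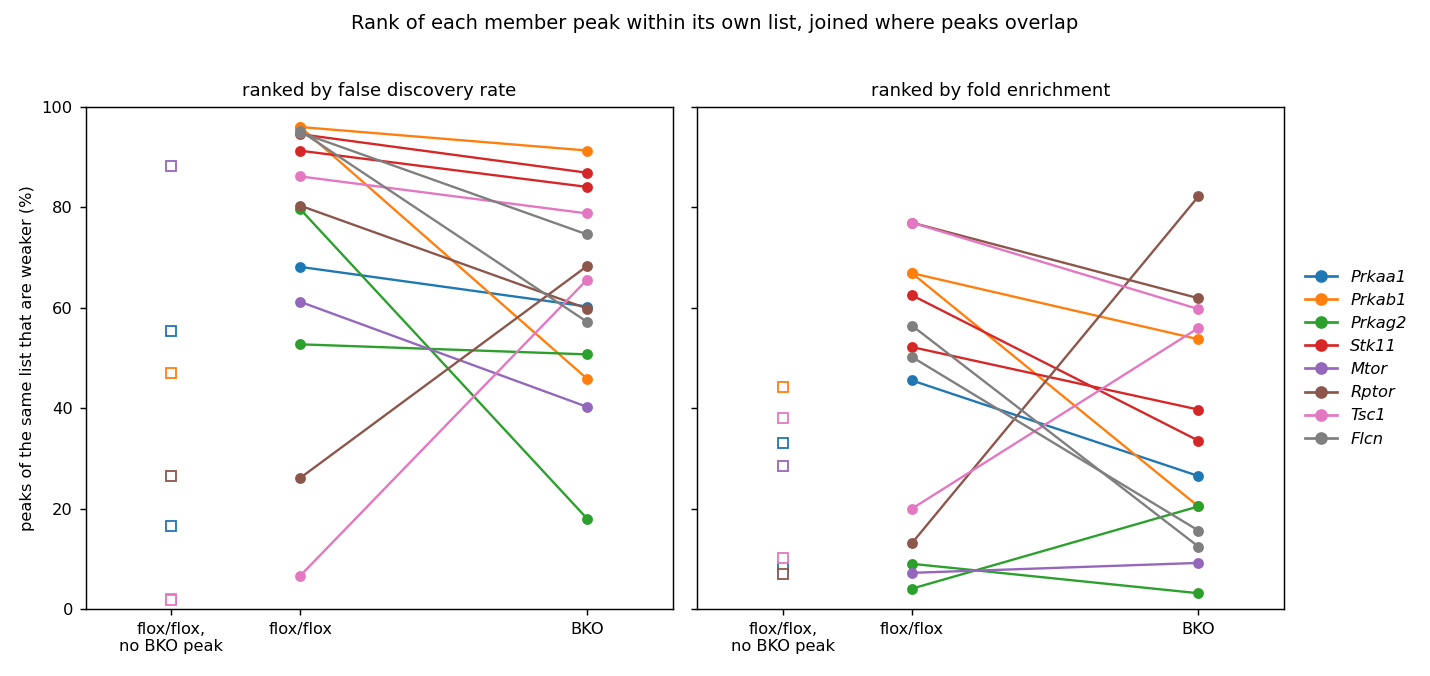
Percent of peaks of the same list that were weaker, by FDR (left) and by fold enrichment (right), for each member peak, with lines joining peaks that overlap between the *Wtap* flox/flox and *Wtap*-BKO lists and open squares for the *Wtap* flox/flox peaks without a *Wtap*-BKO peak on them. The broad *Prkab1* peak is joined to 2 *Wtap*-BKO peaks. By FDR, 12 of the 14 lines go down, and the 2 that go up are the upstream peaks of *Rptor* (26.2% to 68.3%) and *Tsc1* (6.74% to 65.6%).

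Across the 14 overlapping pairs, 12 (85.7%) had a lower FDR rank in *Wtap*-BKO, beside 46.5% of all overlapping pairs in the lists. The median difference, *Wtap*-BKO minus *Wtap* flox/flox, was -7.77 percentage points with a range from -61.5 to 58.9, and over all pairs it was 1.1. By rank of fold enrichment 10 of 14 pairs (71.4%) were lower in *Wtap*-BKO, beside 51.1% of all pairs, and the median difference was -14.1 points against -0.61 over all pairs. The fold enrichment itself was higher in *Wtap* flox/flox in 11 of 14 pairs, with a median ratio of 1.95 (range 0.229 to 3.75) against 1.33 over all pairs. Pairs on 1 gene share their transcript, and both *Prkab1* pairs share 1 *Wtap* flox/flox peak, so the 14 are not independent. The pairs over all genes were not matched to them for starting rank, and a high rank has little room to rise. The 2 member pairs that rose by FDR had the lowest *Wtap* flox/flox ranks, 26.2% on *Rptor* and 6.74% on *Tsc1*.

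The exonic bases under peaks were fewer in *Wtap*-BKO for all 8 members with peaks, whereas 53.2% of all genes with peaks in both lists had fewer. All genes were not matched to the members for the bases or the number of peaks in *Wtap* flox/flox. The members started from 542 or more bases there. Their median *Wtap* flox/flox peak covered 285 bases, against 240 over all peaks, and a short peak has little room to shrink. The sum over the members was 6864 bases for *Wtap* flox/flox and 4079 for *Wtap*-BKO, with 3540 covered in both. *Mtor* went from 572 to 121 bases, *Prkaa1* from 690 to 210 and *Prkab1* from 1371 to 686. The smallest differences were those of *Flcn*, from 776 to 628 bases, and *Rptor*, from 542 to 420. The number of peaks was lower in *Wtap*-BKO for 4 of 8 members (*Prkaa1*, *Mtor*, *Rptor* and *Tsc1*), equal for 4 and higher for 0, and over all genes with peaks in both lists it was lower for 23.2%. Each of these members had at least 2 *Wtap* flox/flox peaks, whereas the genes behind the 23.2% include those with 1. A gene with 1 cannot have fewer and still have peaks in both lists, so the 2 shares are not alike. Per gene, the bases under *Wtap*-BKO peaks were a median of 0.682 of those under *Wtap* flox/flox peaks over the 8 members (range 0.212 to 0.809), against 0.942 over all 8014 genes with peaks in both lists. The bases and the rank of a peak come from the same call and are not separate measures.

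**Figure D3:**
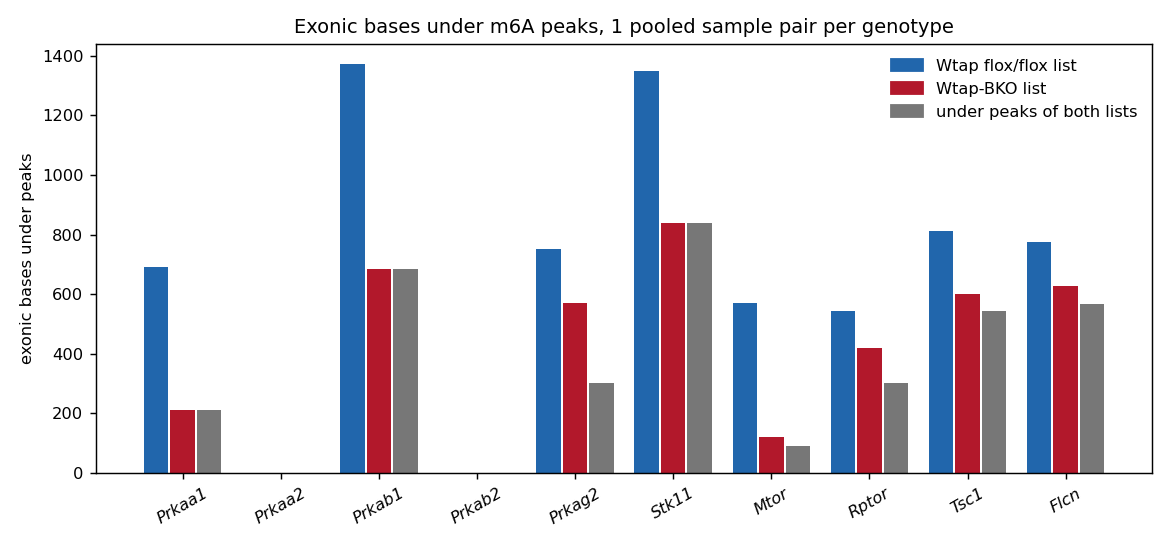
Exonic bases under m6A peaks of each of the 10 genes in the *Wtap* flox/flox list (blue), in the *Wtap*-BKO list (red) and under peaks of both (grey), 1 pooled IP and input per genotype and no error bars. The red bar is lower than the blue one for each of the 8 genes with peaks, from 572 against 121 bases in *Mtor* to 776 against 628 in *Flcn*, and *Prkaa2* and *Prkab2* have none.

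The members did not stand at one end of the lists. By FDR their peaks had a median rank of 64.7% for *Wtap* flox/flox and 62.9% for *Wtap*-BKO, above the 50% of all peaks, but by fold enrichment the medians were 35.6% and 30.1%. Peaks on these genes were thus called with more confidence, at a lower enrichment, than the middle peak of each list. The median fold enrichment was 4.75 in *Wtap* flox/flox against 6.58 over all peaks, and 3.12 in *Wtap*-BKO against 4.65. Peaks among the strongest 20% by FDR numbered 8 of 20 in *Wtap* flox/flox and 3 of 14 in *Wtap*-BKO, the latter on *Prkab1* and *Stk11*.

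Many member peaks lay at the 3′ end. In *Wtap* flox/flox 8 of 20 (40%) had their centre within 1000 bp of the 3′ end of the gene, beside 20.8% of all peaks inside their gene's span, and in *Wtap*-BKO 5 of 14 (35.7%) beside 18.5%. Within 1000 bp of the 5′ end were 2 of 20 (10%, on *Prkab1* and *Stk11*) and 1 of 14 (7.14%, on *Stk11*), beside 10.1% and 11.3% of all peaks. Distances are along the gene with introns included, and no exon, UTR or stop codon annotation was used.

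To set the members in their pathway, 62 other genes of AMPK and mTOR signalling in 16 roles were described in the same way. A peak in either list was present on 52 of the 62 (83.9%). Of these, 38 (73.1%) were in both lists, 9 in *Wtap* flox/flox alone and 5 in *Wtap*-BKO alone, beside the 70.1% of all genes with peaks in both. Of their 93 *Wtap* flox/flox peaks, 29 (31.2%) were not found in *Wtap*-BKO, close to the 32.2% of all peaks in that list. Of their 84 *Wtap*-BKO peaks, 19 (22.6%) were not found in *Wtap* flox/flox, beside 32% of all *Wtap*-BKO peaks. Fewer bases in *Wtap*-BKO were seen for 25 of the 38 genes with peaks in both (65.8%), beside 53.2% of all such genes. Per gene, the bases under their *Wtap*-BKO peaks were a median of 0.788 of those under *Wtap* flox/flox peaks. This lay between the 0.682 of the members and the 0.942 over all genes with peaks in both lists. The sets were not matched for bases or number of peaks in *Wtap* flox/flox.

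Among the AMPK subunits, *Prkag1* and *Prkag3* had no peak, so with *Prkaa2* and *Prkab2* there were 4 subunit genes without m6A peaks and 3 with them, 1 for each kind of subunit. The lists do not show whether the genes without peaks were expressed in the tissue.

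The companions with peaks in *Wtap* flox/flox alone were *Camkk2*, an upstream AMPK kinase; *Ulk1*, the autophagy kinase; the mTOR complex subunits *Mlst8* and *Akt1s1*; *Tsc2*, the partner of *Tsc1* with the GTPase-activating domain; *Rragb*; and *Depdc5*, *Wdr24* and *Itfg2* of the GATOR1, GATOR2 and KICSTOR complexes. Those with peaks in *Wtap*-BKO alone were *Cab39l*, *Camkk1*, *Mff*, *Rheb* and *Seh1l*. *Rheb* is the GTPase that switches mTORC1 on and *Mff* is a mitochondrial fission factor phosphorylated by AMPK. Peaks were in neither list for *Stradb*, *Tbc1d7*, *Rhebl1*, *Rragd*, *Lamtor3*, *Lamtor4*, *Nprl2* and *Sec13*.

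The strongest companion peaks without a counterpart by FDR were on *Tbc1d4*, *Ulk1* and *Lamtor2* in *Wtap* flox/flox. The *Tbc1d4* peak, on the AS160 gene of glucose transporter traffic, spanned chr14:101444339-101447603 with 510 exonic bases, a fold enrichment of 4.76 and a rank of 92.2%. The *Ulk1* peak, chr5:110785654-110786192, covered 539 bases with a fold enrichment of 3.82 and a rank of 83.1%. The *Lamtor2* peak, chr3:88552239-88552506, covered 268 bases with a fold enrichment of 5.6 and a rank of 77.1%. These 3 were picked by FDR, so their high ranks follow from the choice. Other *Wtap* flox/flox companion peaks without a counterpart ranked as low as 0.859%, on *Depdc5*.

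In *Wtap*-BKO the strongest companion peaks without a counterpart were of middle rank. They lay on *Rheb* (chr5:24842265-24842444, fold enrichment 2.5, rank 61.9%), on *Rps6kb1*, the S6 kinase gene (chr11:86519975-86544805, fold enrichment 6.83, rank 58.8%), and on *Mff* (chr1:82724920-82725070, fold enrichment 2.39, rank 58.3%). The *Rps6kb1* peak was spliced over 6 blocks of 660 bases in all. A peak of an unnamed gene on the opposite strand shared bases with the *Mff* peak, so reads of both genes cannot be told apart there.

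**Figure D4:**
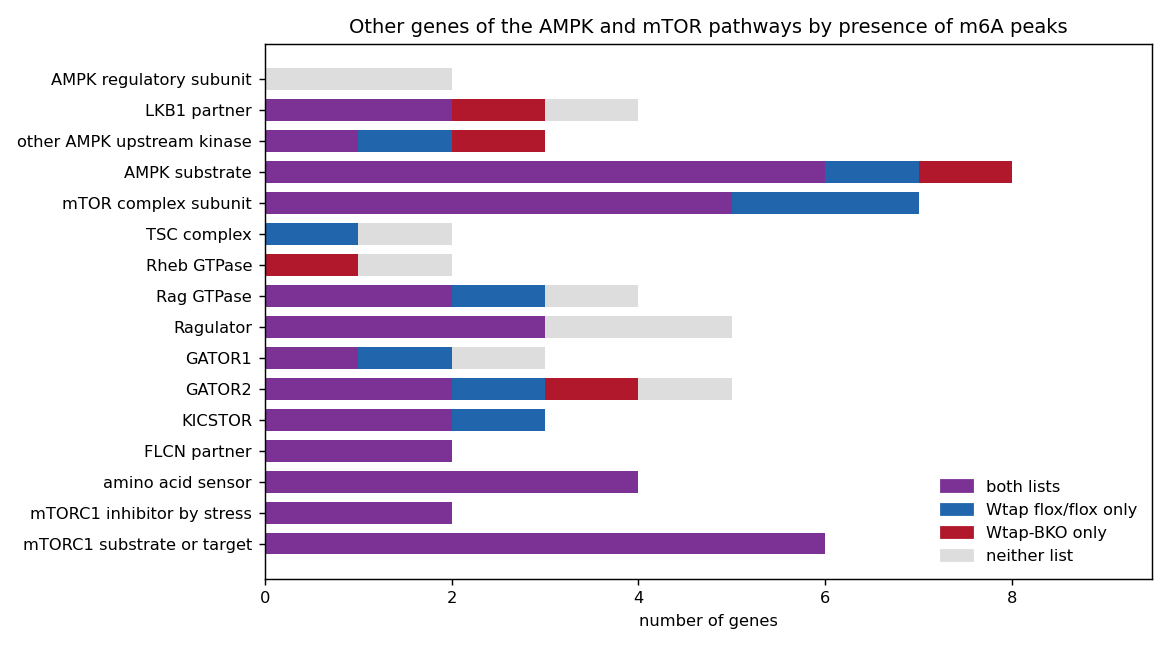
Number of genes in each of 16 roles around AMPK and mTOR, 62 genes in all, coloured by whether m6A peaks were called in both genotypes, in *Wtap* flox/flox alone, in *Wtap*-BKO alone or in neither. All 6 mTORC1 substrates or targets and all 4 amino acid sensors had peaks in both lists, and both other AMPK regulatory subunit genes had none.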

How the data were processed

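The authors deposited 1 list of m6A peaks per genotype. The submitters' processing notes name fastp 0.19.11, BWA 0.7.12, HOMER 4.9.1 and the build GRCm38.p6, without their roles. The study's methods name MACS2 for peak calling, but the layout, with spliced blocks on Ensembl genes, is not that of MACS2 and the caller could not be settled. Each peak has the authors' p-value, log10 scores of that p-value and of its FDR, and a fold enrichment, all as deposited. The last, as the authors deposited it, is a ratio of IP over input whose scaling for library size is not given in the sources used here. The authors filtered both lists at an FDR under 0.05. Depth is unknown.

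Overlaps, ranks and counts were computed with numpy 2.4.6 under Python 3.11.15, intervals with scipy 1.17.1 and figures with matplotlib 3.10.9. Starts are counted from 0 in the files and were made 1-based. A peak was found when it shared 1 or more exonic bases on its strand with a peak of the other list, which was tested on simulated data. Gene spans came from a RefSeq table of GRCm38.p6. No sequences are shown, and exons and UTRs were not analysed here.

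The members and gene lists were chosen with earlier results of these data known. The genes named were the 10 members, *Wtap*, the companions with peaks in 1 list alone and, per list, the 3 companion peaks of smallest FDR without a counterpart. Companions without a peak, markers and the companions in the closing section were named in addition. A lymphocyte marker is not reported here and was left out of its list. With 1 pool of 8 mice per sample no test between genotypes was made. The alternatives changed the overlap, the FDR threshold, the part of the peak matched and the measure ranked.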

Additional observations from a re-analysis of the deposited data

How the results depend on the processing

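Of 28 values recomputed under other settings, 22 stayed within the limits set for them and 6 moved. With the *Wtap* flox/flox peaks limited to an FDR under 1e-05 and searched in all *Wtap*-BKO peaks, 3 members instead of 5 had a *Wtap* flox/flox peak not found. With any peak on the same gene counted as a match, 100% instead of 65% of the *Wtap* flox/flox member peaks were found and the members with one not found numbered 0. Members with a *Wtap*-BKO peak not found numbered 2 instead of 0 with both lists limited to an FDR under 1e-05 (*Rptor* and *Tsc1*), and 2 with at least 50% of the peak's bases required (*Rptor* and *Prkag2*). The absence of *Wtap*-BKO peaks without a counterpart thus depends on counting weak peaks and short overlaps. Ranked by fold enrichment, the median *Wtap*-BKO member peak stood at 30.1% instead of 62.9%. The median *Wtap* flox/flox member peak stood at 35.6% instead of 64.7%, which counted as within its wide limits of 26.4% to 89%. Both medians thus went from above to below the 50% of all peaks. Matching the whole span, or peaks of the same gene only, gave the main values.

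No paired analysis was possible because each genotype has 1 pooled IP and 1 pooled input, and leaving out a replicate was not possible. Without replicates, spread between mice is unknown. Read totals are unknown, so the coverage of a site without a called peak is unknown too, and sequencing depth and genotype cannot be told apart. The ranks compare positions within lists and not amounts of m6A.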

Other observations

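Outside the members, the bases under peaks moved in both directions among companions with peaks in both lists, with fewer in *Wtap*-BKO for 25 of 38. The genes below were chosen after their values were seen. The translation repressor gene *Eif4ebp1*, an mTORC1 substrate, had 1 peak in each list. In *Wtap* flox/flox it covered 565 exonic bases with a log10 FDR of -272 and a rank of 99%, and in *Wtap*-BKO 179 bases with a log10 FDR of -26.6 and a rank of 85.3%. The bases under *Wtap*-BKO peaks were 0.201 of those under *Wtap* flox/flox peaks for *Tbc1d4*, close to the 0.212 of *Mtor*. For the leucine sensor gene *Sesn2* this ratio was 0.258.

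*Ddit4*, which encodes the stress-induced mTORC1 inhibitor REDD1, went the other way. Its *Wtap* flox/flox peaks covered 269 and 566 bases with fold enrichments of 7 and 5.96 and ranks of 20.3% and 90.1%. In *Wtap*-BKO a single peak of 1191 bases ran over both, with a fold enrichment of 20.1, a log10 FDR of -183 and a rank of 99%. A further *Wtap*-BKO peak of 120 bases, with a fold enrichment of 4.74, lay at the start of the gene. The amino acid sensor gene *Slc38a9* had 2.01 times and *Rps6kb1* 1.92 times the bases in *Wtap*-BKO, the latter through the spliced peak described above, while its main peak covered the same 720 bases in both lists. No test between genotypes was made here for any of these.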
